A study of Mus musculus with 8 samples.

Results

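The enzymes of folate one-carbon metabolism and serine synthesis were followed in the tibialis anterior muscle of the mouse shin after deletion of Sdhc, which encodes a subunit holding succinate dehydrogenase in the inner mitochondrial membrane. RNA was measured in 4 KO and 4 WT libraries by sequencing 1 amplified segment of each gene. KO mice carried the genotype written as Inducible HSA-Cre/Lox-SDHC, and WT mice were littermates with Inducible HSA-Cre/No Lox, so both groups carried the recombinase, driven by the human skeletal actin promoter of muscle fibres. Both groups received tamoxifen when 12 weeks old, and the muscle was collected after a further 20 weeks. The strain is written as C57BL/6 for WT and as C57BL/7 or C57BL/8 for KO in the genotype labels, and as C57/B6 in the growth protocol. The 10 genes considered were selected by name from the pathway with the KO against WT differences of these data already known: Mthfd2, Mthfd1l, Shmt2 and Aldh1l2 (mitochondrial arm), Mthfd1, Shmt1 and Aldh1l1 (cytosolic arm), and Phgdh, Psat1 and Psph (serine synthesis). The table of 23930 genes held 9 of the 10. Phgdh, the dehydrogenase that opens serine synthesis from the glycolytic intermediate 3-phosphoglycerate, is not analysed here. Because these genes were picked with this contrast known, their KO against WT values and p-values are a description and no independent evidence.

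Folate carries single carbon units between molecules, and the same sequence of reactions exists in the cytosol and in the mitochondrial matrix, run by related but separate enzymes. In mitochondria, serine is split to glycine, and the carbon unit it gives up is oxidised to formate, which leaves for the cytosol and serves purine, thymidylate and methionine synthesis. Serine itself can be made from glycolysis by the successive action of Phgdh, Psat1 and Psph. Muscle fibres do not divide. Mthfd2 is known for low levels in most adult tissues, high levels in dividing cells, and induction by the transcription factor ATF4 when mitochondria fail.

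Library totals ran from 4774602 to 7281574 reads, and 3 reads, the floor used here, corresponded to 0.412 to 0.628 RPM (reads per 1000000 reads). Sdhc stood at 26 ± 16 RPM in KO libraries and 696 ± 91.8 RPM in WT libraries (mean ± SD, n = 4 each, p = 0.0286 by an exact permutation test, two-sided, the lower limit for 4 against 4 libraries). KO 4 and WT 1 held Xist at 98.9 and 77.3 RPM, where the other 6 libraries held at most 0.334 RPM. The sex of the animals is not in the labels. The median gene of the 11087 tested (at least 1 RPM in at least 4 libraries) lay 0.13 higher in KO on the log2(RPM + 1) scale. Log2 differences and their 95% intervals below are given relative to that median, while SE and p-values were not recentred. An interval that leaves out 0 can therefore go with an unadjusted p above 0.05. Markers of muscle fibres (8 of 8 in the table) summed to 86534 to 130179 RPM in KO libraries and 98692 to 150773 RPM in WT, a ratio of mean sums of 0.835. All 8 lay below the median gene, with a median log2 difference of -0.35 and none called in limma or edgeR. Of the 8, 1 was lower at an unadjusted p under 0.05, as were 3.07% of all genes tested. The part of these markers in the differences of the enzymes was not tested. In limma, 0.803% of all genes tested differed at an adjusted p under 0.05, with 0.523% higher and 0.28% lower in KO. Of the 9 enzymes measured, 1 (Mthfd2) was called.

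Mthfd2, which encodes the mitochondrial methylenetetrahydrofolate dehydrogenase and cyclohydrolase, was the enzyme with the largest difference. Its level was 51.6, 57.8, 81.6 and 30.8 RPM in KO 1 to KO 4, against 10.4, 8.52, 10.6 and 12.8 RPM in WT 1 to WT 4. The groups did not overlap, and the lowest KO library, KO 4, was above the highest WT library. These levels rested on 224 to 457 reads in a KO library and on 51 to 79 reads in a WT library. Mthfd2 averaged 55.4 ± 20.9 RPM in KO libraries and 10.6 ± 1.75 RPM in WT libraries (SD, n = 4 each), a ratio of means of 5.24. On the log2(RPM + 1) scale it rose by 2.09 (SE 0.23, limma adjusted p = 1.33e-04, edgeR adjusted p = 2.4e-04 on the recovered reads), with a 95% interval of 1.61 to 2.57, which like those of the other enzymes is not adjusted for the number of genes. The spread was wider among KO libraries, with a coefficient of variation of 37.7% in KO and 16.5% in WT. After rescaling with factors from the trimmed mean of M values (TMM) the means were 52.5 ± 17.4 RPM in KO libraries and 11.1 ± 1.72 RPM in WT. KO 4, the KO library with the least Mthfd2, was also the KO library with the most Sdhc, at 49.4 RPM against 14.5 to 22.8 RPM in the other 3. Among those 3 the order differed, as KO 3 held both the most Sdhc, 22.8 RPM, and the most Mthfd2, 81.6 RPM. KO 4 also had the highest Xist of the KO libraries, at 98.9 RPM. A link between Sdhc and Mthfd2 levels was not tested. The Mthfd2 gene lies on chromosome 6 of GRCm38 from 83305691 to 83325908, minus strand, and a predicted gene, Gm43890, overlaps it on the same strand.

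**Figure D1:**
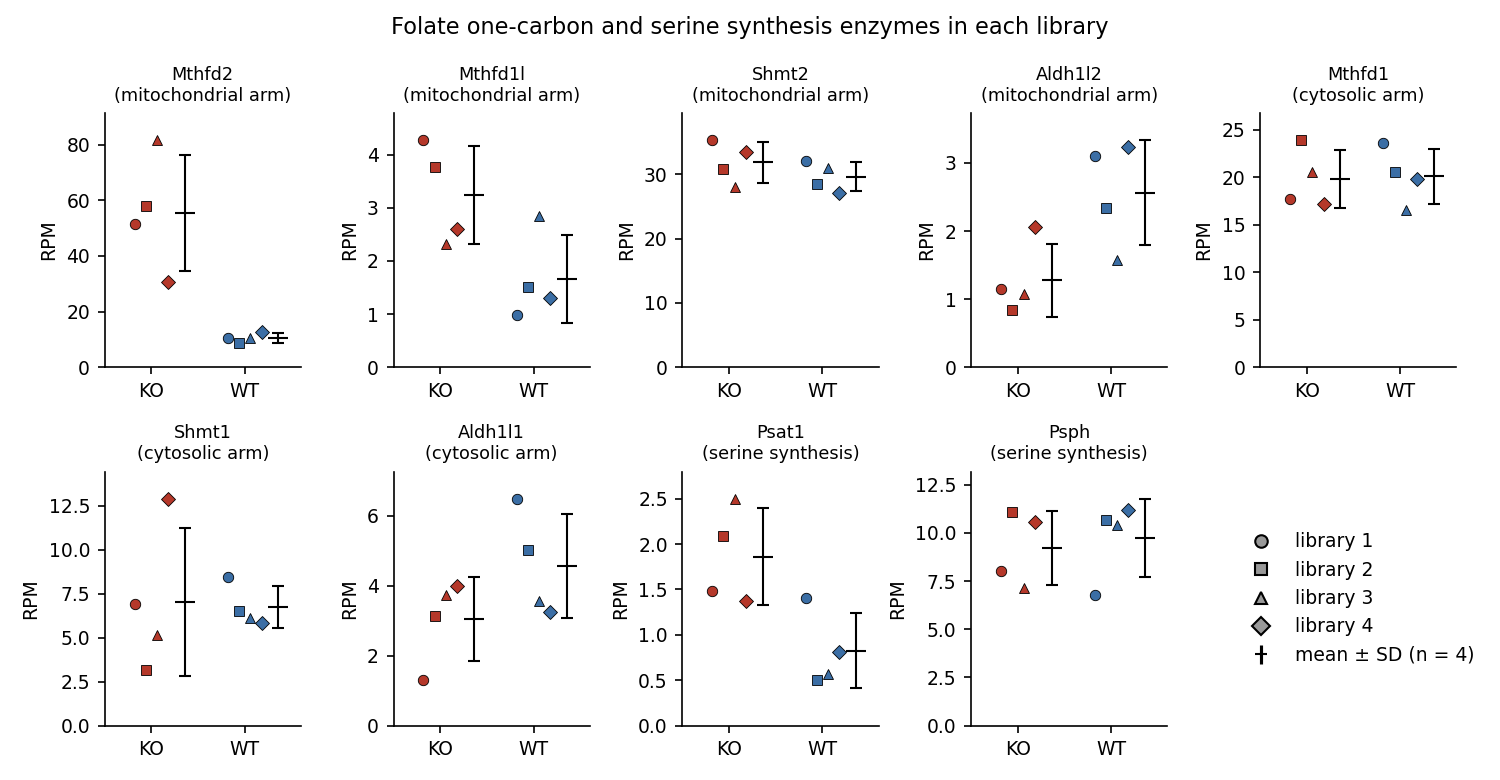
RPM of each of the 9 enzymes (vertical axes, starting at 0) in the KO and WT libraries; symbols mark libraries 1 to 4 and bars the mean ± SD (n = 4 per group). The KO points of Mthfd2, from 30.8 to 81.6 RPM, all lie above its WT points, from 8.52 to 12.8 RPM, while the KO and WT points overlap in the other 8 enzymes.

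None of the other 3 mitochondrial enzymes passed the test. Mthfd1l, the mitochondrial formyltetrahydrofolate synthetase that releases formate, stood at 4.27, 3.77, 2.32 and 2.61 RPM in KO 1 to KO 4, against 0.987, 1.5, 2.85 and 1.3 RPM in WT 1 to WT 4. WT 3 was above KO 3 and KO 4, so the groups overlapped. Its log2 difference was 0.57 (95% interval 0.06 to 1.08) and did not pass (limma adjusted p = 0.18). Its counts were low, with 13 to 26 reads in a KO library and 7 to 20 reads in a WT library. The gene lies at chr10:3973118-4167081, plus strand (GRCm38, as for the genes that follow).

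Shmt2, the mitochondrial serine hydroxymethyltransferase that takes the carbon unit from serine, stood at 35.3, 30.8, 28 and 33.5 RPM in KO 1 to KO 4, against 32.2, 28.5, 30.9 and 27 RPM in WT 1 to WT 4. The groups overlapped, although KO 1 and KO 4 lay above every WT library. The log2 difference was -0.03 (limma adjusted p = 0.758), and its 95% interval of -0.32 to 0.27 corresponds to 0.801-fold to 1.2-fold. Shmt2 was among the best measured of the enzymes, with 147 to 244 reads in a KO library and 167 to 228 reads in a WT library. Ndufa4l2, a gene induced by hypoxia, overlaps Shmt2 (chr10:127517123-127522444, minus strand) on the other strand, and no source used here says whether counting used strand. Ndufa4l2 stood at 46.1 ± 8.36 RPM in KO libraries and 42 ± 7.03 RPM in WT libraries (limma adjusted p = 0.729, n = 4 each).

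Aldh1l2, the mitochondrial dehydrogenase that burns formyltetrahydrofolate to carbon dioxide and makes NADPH (chr10:83487450-83534140, minus strand), stood at 1.15, 0.838, 1.07 and 2.06 RPM in KO 1 to KO 4, against 3.1, 2.34, 1.57 and 3.24 RPM in WT 1 to WT 4. KO 4 was above WT 3, and the other KO libraries were below every WT library. A log2 difference of -0.77 (95% interval -1.26 to -0.27, limma adjusted p = 0.197) did not pass. These levels came from 4 to 15 reads in a KO library and 11 to 22 reads in a WT library. The exact 95% binomial intervals (Clopper-Pearson) of KO 2, 0.228 to 2.15 RPM, and WT 3, 0.783 to 2.81 RPM, overlapped. These intervals cover the counting error of reads only, and amplicon reads carry no molecular identifiers.

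Beside these values the promoters of Mthfd2 and Shmt2 are shown, the mitochondrial enzyme that rose and one that was well measured and did not pass. The windows run from 250 bases before to 50 bases after the annotated start (RefSeq, GRCm38.p6, both on the minus strand, at chr6:83317555-83317854 and chr10:127522395-127522694). They are printed 5′ to 3′ with matches to CCAAT or its reverse complement in capitals. The Mthfd2 window lies within the GENCODE span of the gene, whose outer 5′ end on the minus strand is at 83325908. Sequence at that end was not searched. The Shmt2 window covers the 5′ end of its GENCODE span, 127522444.
Mthfd2: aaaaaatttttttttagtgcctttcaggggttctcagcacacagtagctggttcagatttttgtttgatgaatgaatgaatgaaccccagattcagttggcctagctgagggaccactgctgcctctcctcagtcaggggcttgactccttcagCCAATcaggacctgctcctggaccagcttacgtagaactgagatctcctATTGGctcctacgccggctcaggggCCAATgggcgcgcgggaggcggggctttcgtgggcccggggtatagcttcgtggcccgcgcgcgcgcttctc
Shmt2: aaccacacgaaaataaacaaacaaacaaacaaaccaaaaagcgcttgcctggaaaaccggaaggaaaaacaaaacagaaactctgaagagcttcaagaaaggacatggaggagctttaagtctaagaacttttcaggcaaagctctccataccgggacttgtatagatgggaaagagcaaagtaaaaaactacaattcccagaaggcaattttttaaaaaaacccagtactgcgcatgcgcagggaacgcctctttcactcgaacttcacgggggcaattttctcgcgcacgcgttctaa
The Mthfd2 window held 3 CCAAT matches, at 96, 47 and 22 bases before the start, and the Shmt2 window held 0. The count did not follow the calls over the other enzymes: of the windows of enzymes that did not pass, the upstream start of Psat1 also held 3, Psph and Aldh1l1 held 2 each, Shmt1 and Mthfd1 held 1 each, and Mthfd1l and the other Psat1 start held 0. Phgdh held 2. Among all 32851 promoter windows of the same length, 37.4% held at least 1 match and 3.37% held at least 3. TGATGNAA, the core of the composite element that ATF4 binds, searched on both strands, was in neither window. It was in 0 of the windows of the 9 enzymes that have one (Phgdh included, Psat1 with 2 starts), in 3.97% of all windows, and in those of 12 of the 26 genes with a window in the ATF4 and amino acid response list. Also searched on both strands were the E-box CACGTG, held by 7.15% of all windows, the core of the cAMP response element, TGACGT, held by 7.51%, and the GC box GGGCGG, held by 35.7%. Neither window held any of these 3, so no match overlapped another. The table holds no window for Aldh1l2.

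In the cytosolic arm no enzyme passed the test. Mthfd1, the cytosolic enzyme that joins dehydrogenase, cyclohydrolase and synthetase activities in 1 protein (chr12:76255298-76319803, plus strand), stood at 17.7, 23.9, 20.5 and 17.2 RPM in KO 1 to KO 4, against 23.6, 20.5, 16.5 and 19.8 RPM in WT 1 to WT 4. The groups overlapped fully. Its log2 difference was -0.15 (95% interval -0.49 to 0.20, limma adjusted p = 0.967), from 108 to 125 reads in a KO library and 116 to 167 reads in a WT library.

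Shmt1, the cytosolic serine hydroxymethyltransferase (chr11:60788104-60811718, minus strand), stood at 6.9, 3.14, 5.18 and 12.9 RPM in KO 1 to KO 4, against 8.46, 6.51, 6.13 and 5.83 RPM in WT 1 to WT 4. The KO libraries held both the highest and the lowest value, with KO 4 above and KO 2 below all others. The log2 difference was -0.20 (95% interval -0.80 to 0.39, limma adjusted p = 0.921), from 15 to 94 reads in a KO library and 36 to 60 reads in a WT library. KO 4 and WT 1, the libraries with Xist, were the highest of their groups.

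Aldh1l1, the cytosolic counterpart of Aldh1l2 (chr6:90486427-90600203, plus strand), stood at 1.31, 3.14, 3.75 and 3.98 RPM in KO 1 to KO 4, against 6.49, 5.01, 3.56 and 3.24 RPM in WT 1 to WT 4. KO 3 and KO 4 were above WT 3 and WT 4, so the groups overlapped. As in Shmt1, the libraries with Xist, KO 4 and WT 1, held the highest values of their groups. The log2 difference was -0.61 (95% interval -1.16 to -0.06, limma adjusted p = 0.365) and did not pass, from 8 to 29 reads in a KO library and 20 to 46 reads in a WT library. The interval is recentred on the median gene, and the unadjusted limma p, which is not, was 0.0794.

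Of the serine synthesis enzymes, Psat1, the aminotransferase of the second step (chr19:15904678-15947337, minus strand), stood at 1.48, 2.09, 2.5 and 1.37 RPM in KO 1 to KO 4, against 1.41, 0.501, 0.57 and 0.81 RPM in WT 1 to WT 4. WT 1 lay above KO 4, and the other WT libraries lay below all KO libraries. Psat1 reached 1 RPM in 4 of 4 KO and 1 of 4 WT libraries and passed the filter on low values through the KO libraries. It had 9 to 14 reads in a KO library and 3 to 10 reads in a WT library, with WT 2 at the floor of 3 reads. The log2 difference was 0.53 (95% interval 0.04 to 1.02, limma adjusted p = 0.183) and did not pass.

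Psph, the phosphatase that completes serine (chr5:129765558-129787449, minus strand), stood at 8.05, 11.1, 7.14 and 10.6 RPM in KO 1 to KO 4, against 6.77, 10.7, 10.4 and 11.2 RPM in WT 1 to WT 4. Both groups covered about the same range. Its log2 difference was -0.20 (95% interval -0.61 to 0.22, limma adjusted p = 0.887). The chaperonin gene Cct6a overlaps Psph on the other strand.

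**Figure D2:**
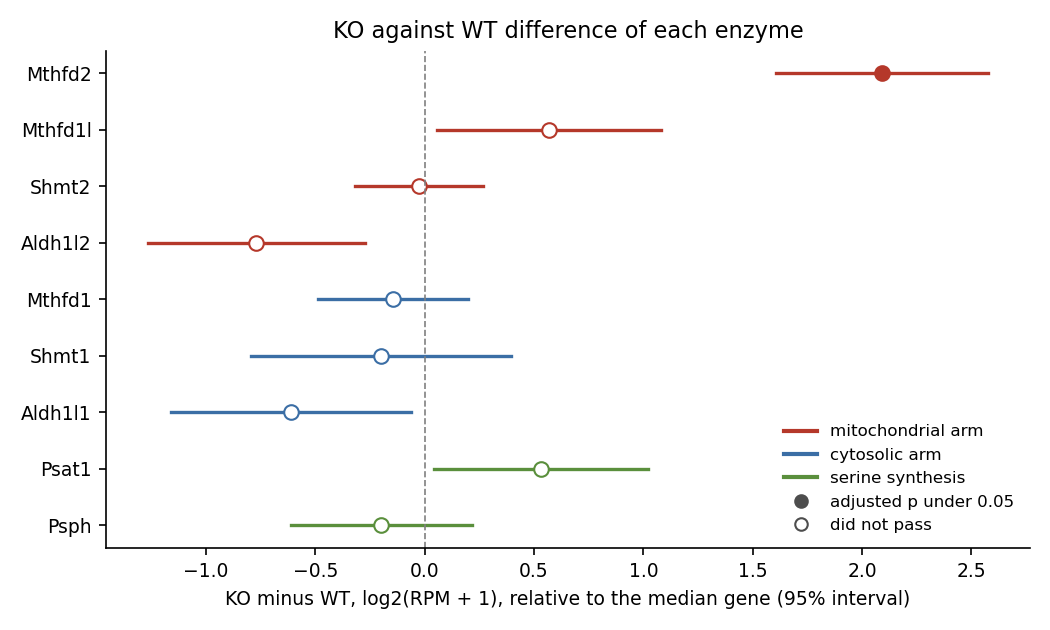
Log2(RPM + 1) difference of each enzyme, KO minus WT, relative to the median gene (horizontal axis), with its 95% interval from the limma fit, not adjusted for the number of genes; colours mark the arms and a filled point an adjusted p under 0.05. Mthfd2 is at 2.09, the other 8 enzymes lie between -0.77 and 0.57, and the mitochondrial arm holds both the highest and the lowest of the 9.

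At an unadjusted p under 0.05, Mthfd2, Mthfd1l and Psat1 were higher and Aldh1l2 was lower in KO. Of all genes tested, 13.1% reached that level on the higher side and 3.07% on the lower side. In 1 of the 9 enzymes all KO libraries lay above all WT libraries, and in 0 all lay below, where 7.5% and 1.61% of all genes tested did so. The arms themselves were compared by the mean log2(RPM + 1) of their genes in each library, as a description. The mitochondrial mean was 3.50 ± 0.09 in KO and 2.91 ± 0.08 in WT without overlap, and the cytosolic mean was 3.06 ± 0.27 in KO and 3.26 ± 0.25 in WT with overlap (SD, n = 4 each). The serine synthesis mean, over Psat1 and Psph, was 2.42 ± 0.15 in KO and 2.12 ± 0.07 in WT, a difference of 0.29, and did not overlap, although each of the pair did. Psat1 had passed the filter on low values through the KO libraries. The summed RPM of the pair did overlap, at 9.53 to 13.2 RPM in KO libraries and 8.18 to 12 RPM in WT. The mitochondrial mean minus the cytosolic mean was 0.79, 0.59, 0.40 and -0.04 in KO 1 to KO 4, against -0.69, -0.51, -0.09 and -0.11 in WT 1 to WT 4. KO 4 was only just above WT 3. The averages were 0.44 ± 0.36 in KO and -0.35 ± 0.30 in WT (SD, n = 4 each), a difference of 0.79. Without Mthfd2 the groups overlapped and the difference was 0.24, from -0.31 ± 0.32 in KO and -0.55 ± 0.28 in WT. Mthfd2 made up 58.7% ± 11.5 of the summed RPM of the 4 mitochondrial amplicons in KO and 23.7% ± 3.51 in WT.

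Ratios of enzymes within a library do not depend on the scaling of that library. Amplicons differ in how well they amplify, so a ratio is compared between libraries only and does not give the proportion of 2 transcripts. Mthfd2 over Mthfd1 was 2.91, 2.42, 3.97 and 1.79 in KO 1 to KO 4, against 0.443, 0.415, 0.638 and 0.648 in WT 1 to WT 4. It was higher in every KO library than in any WT library. Mthfd2 over Mthfd2l, the closely related mitochondrial isozyme, averaged 7.2 ± 1.95 in KO and 1.31 ± 0.355 in WT (SD, n = 4 each). Mthfd2l itself stood at 7.57 ± 1.53 RPM in KO libraries and 8.31 ± 1.33 RPM in WT libraries (log2 difference -0.25, limma adjusted p = 0.774). Shmt2 over Shmt1 was 5.73 ± 2.99 in KO and 4.47 ± 0.522 in WT, with KO 4 (2.6) and KO 2 (9.8) at the ends of the range. Aldh1l2 over Aldh1l1 was 0.486 ± 0.283 in KO and 0.596 ± 0.27 in WT. The groups of both these ratios overlapped, as did those of Mthfd1l over Mthfd1.

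**Figure D3:**
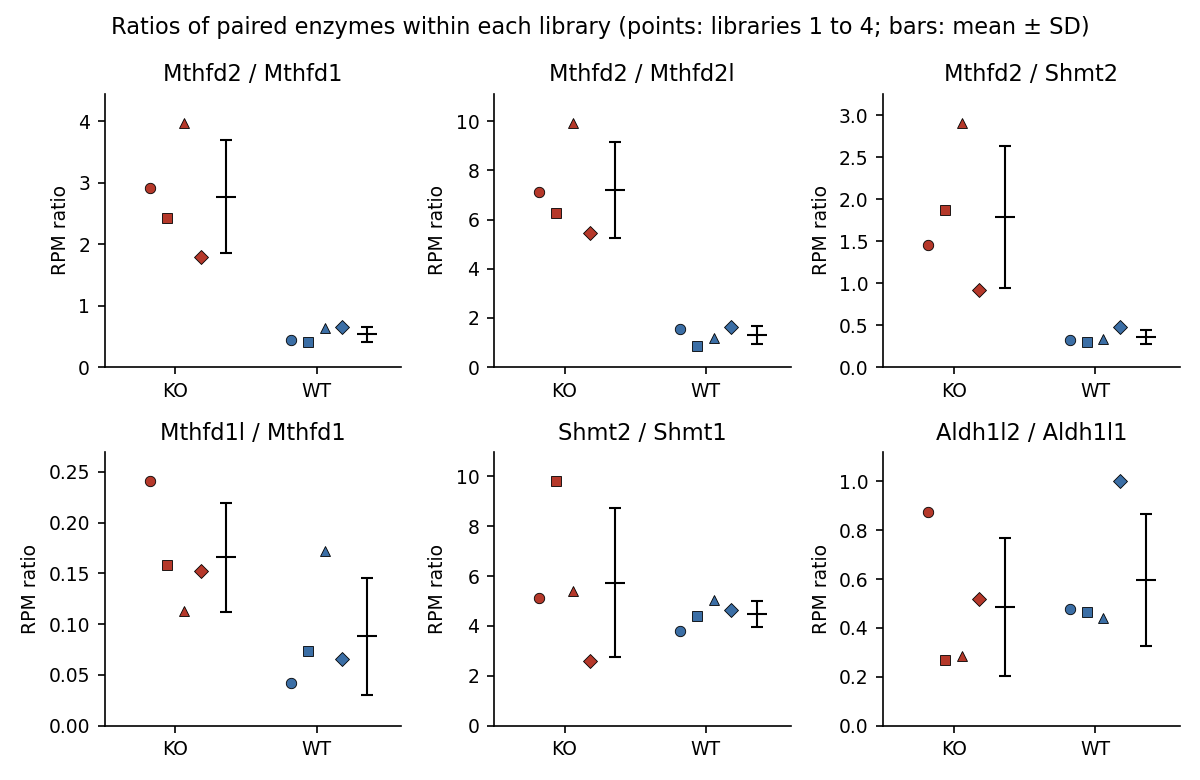
Ratio of the RPM of 2 enzymes in each library (vertical axes, starting at 0), KO and WT; symbols mark libraries 1 to 4 and bars the mean ± SD (n = 4 per group). The 3 ratios with Mthfd2 on top do not overlap between the groups, for example 1.79 to 3.97 in KO and 0.415 to 0.648 in WT for Mthfd2 over Mthfd1, whereas the 3 other ratios do.

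The genes around the pathway were taken from lists by function. Of 12 genes for folate transport, reduction and storage, 11 were in the table and 8 were tested. None passed by limma or edgeR. With an unadjusted p under 0.05, 1 was higher and 0 lower, where 13.1% and 3.07% of all genes tested were. The median log2 difference of the list was -0.04, where that of all genes is 0. Ggh, the lysosomal hydrolase that trims folate chains, stood at 23.6 ± 6.96 RPM in KO libraries and 16.9 ± 1.43 RPM in WT libraries (log2 difference 0.30, limma adjusted p = 0.288). Tyms, which makes thymidylate, lay at 0.16 (limma adjusted p = 0.613), and Mtfmt, which formylates the initiator methionyl-tRNA of mitochondria, at 0.01 (limma adjusted p = 0.774). The folate carriers of the plasma membrane, Slc19a1, and of mitochondria, Slc25a32, lay at -0.14 and -0.03.

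Glycine cleavage and serine handling had 14 of 14 genes in the table and 9 tested, none of which passed by limma or edgeR (1 higher and 0 lower with an unadjusted p under 0.05, median 0.06). Srr, the racemase that makes D-serine, stood at 42.1 ± 10.6 RPM in KO libraries and 30.1 ± 3.25 RPM in WT libraries (limma adjusted p = 0.227). Gcat of threonine and glycine breakdown, the amino acid transporter Slc1a5 and the sideroflexin Sfxn3 had log2 differences of 0.32, 0.20 and -0.39 (limma adjusted p = 0.354, 0.387 and 0.438). The glycine decarboxylase Gldc was not tested, at 0.0342 RPM in KO libraries and 0.0357 RPM in WT libraries on average.

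No gene tested in the methionine cycle and transsulfuration list or in the purine synthesis list passed. In the methionine cycle and transsulfuration list, 16 of 18 genes were in the table and 11 were tested, with none called in limma or edgeR, 0 with an unadjusted p under 0.05 and a median of -0.15. Pemt, Cth, Mtrr and Ahcyl1, the 4 with the smallest p, had log2 differences of -0.59, 0.16, 0.06 and 0.03 (limma adjusted p = 0.401, 0.591, 0.589 and 0.605). In the purine synthesis list, 10 of 11 genes were in the table and tested, with none called in limma or edgeR, 0 with an unadjusted p under 0.05 and a median of -0.13. Ppat, the enzyme that commits to purine synthesis, stood at 119 ± 4.28 RPM in KO libraries and 100.1 ± 12.7 RPM in WT and was the 1 gene of this list whose groups did not overlap (log2 difference 0.13, limma adjusted p = 0.345). Gmps, Paics and Adsl lay at 0.11, -0.28 and 0.01 (limma adjusted p = 0.491, 0.543 and 0.617).

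Because Mthfd2, Psat1, Phgdh and Aldh1l2 are known targets of ATF4, genes of the ATF4 and amino acid response were set beside them. Of 29 genes, all in the table, 26 were tested, and 1 rose and 0 fell. Of all genes tested, 0.523% were called higher and 0.28% lower. The median log2 difference of the list was 0.23. At an unadjusted p under 0.05, 10 were higher and 0 lower, where 13.1% and 3.07% of all genes tested were. In 6 all KO libraries lay above all WT libraries, where 7.5% of all genes tested did so. Of these 6, Trib3 and Stc2 passed the filter on low values through the KO libraries. Trib3, a pseudokinase induced by ATF4, stood at 5.75, 5.45, 9.82 and 2.2 RPM in KO 1 to KO 4, against 0.846, 2.17, 1.28 and 0.486 RPM in WT 1 to WT 4. KO 3 was the highest and KO 4 the lowest of the KO libraries, as in Mthfd2, and KO 4 was barely above WT 2. Trib3 reached 1 RPM in 4 of 4 KO and 2 of 4 WT libraries and so passed the filter through the KO libraries. The log2 difference was 1.43 (limma adjusted p = 0.0288). Its call was lost with no filter on low values (limma adjusted p = 0.0597), after quantile normalization or with no variance trend (0.0516 each), without KO 3 and WT 3 together (0.256), and without KO 1, KO 2 or KO 3 and without WT 3 or WT 4 (limma adjusted p = 0.0787 to 0.108).

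Stc2 (0.85), the proline synthesis enzyme Pycr1 (0.80) and the alanyl-tRNA synthetase Aars (0.49) did not pass (limma adjusted p = 0.0505, 0.0799 and 0.0937). Stc2 reached 1 RPM in 4 of 4 KO and 0 of 4 WT libraries and passed the filter through the KO libraries. Ddit3, Sars, Slc7a5 and Atf5 lay at 0.60, 0.32, 0.76 and 0.57 and did not pass (limma adjusted p = 0.127, 0.139, 0.167 and 0.187). Aldh18a1, the first enzyme of proline synthesis, stood at 4.47 ± 1.48 RPM in KO libraries and 2.56 ± 0.272 RPM in WT libraries (limma adjusted p = 0.197). Asns, the asparagine synthetase, stood at 1.6 ± 0.494 RPM in KO libraries and 1.08 ± 0.656 RPM in WT libraries (limma adjusted p = 0.502). Of the 26 genes tested in this list, 21 lay above the median gene and 5 below, among the latter Pck2 (-0.14) and Chac1 (-0.39). Atf4 itself stood at 311 ± 33.7 RPM in KO libraries and 336 ± 40 RPM in WT libraries (limma adjusted p = 0.711).

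**Figure D4:**
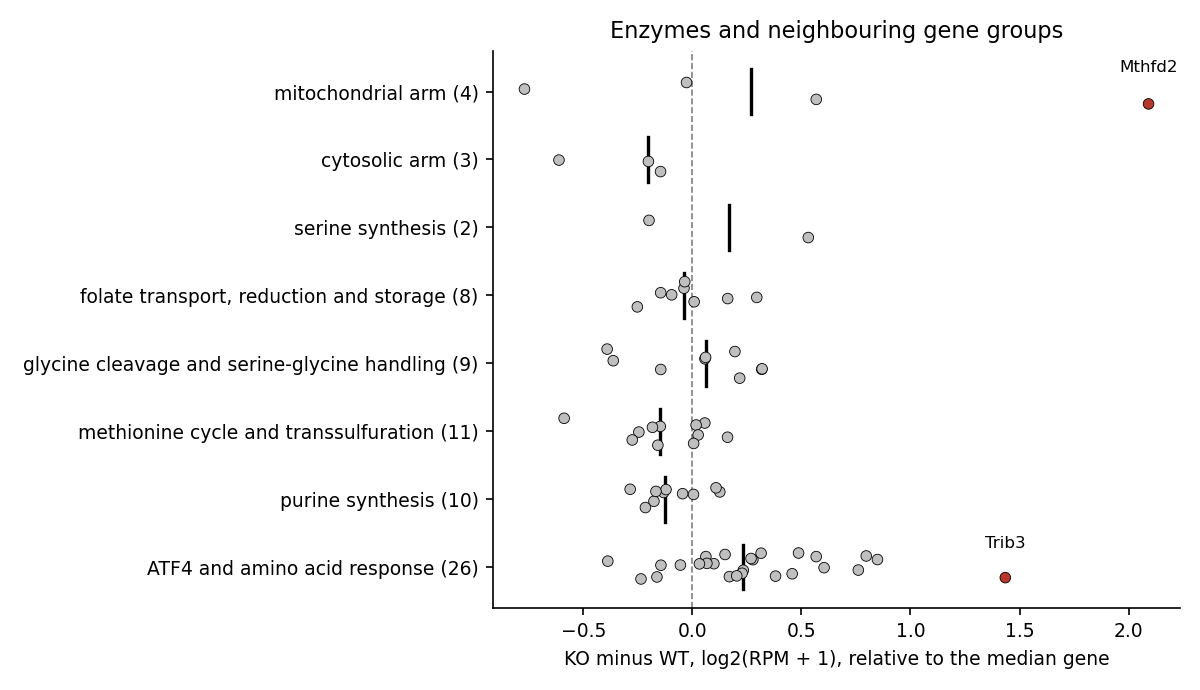
Log2(RPM + 1) difference, KO minus WT, relative to the median gene (horizontal axis), of each tested gene in the 3 arms and the 5 neighbouring lists, with the number tested in brackets; black bars are medians, vertical scatter is only for display, and red points passed at an adjusted p under 0.05. Mthfd2 (2.09) and Trib3 (1.43) are the genes that passed, and the medians of the 5 neighbouring lists lie between -0.15 and 0.23.

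The genes whose values over the 8 libraries were most like those of Mthfd2 were found by the root mean square difference between profiles, each taken as log2(RPM + 1) minus the mean of its WT libraries. In order these were Ankrd1 (0.39), Egln3 (0.43), Gm20735 (0.52), Stbd1 (0.53) and Car9 (0.53). Ankrd1 is a stress-induced titin-binding protein, Egln3 an oxygen-sensing prolyl hydroxylase, Stbd1 a glycogen-binding protein, Car9 a carbonic anhydrase and Gm20735 a long non-coding RNA. All 5 passed in limma (adjusted p between 2.9e-05 and 0.0158), and the measure favours genes with a KO against WT difference of similar size. Gm20735 reached 1 RPM in 4 of 4 KO and 2 of 4 WT libraries and passed the filter on low values through the KO libraries. It had 2 to 13 reads in a WT library. Stbd1 stood at 242, 335, 449 and 132 RPM in KO 1 to KO 4, against 96.6, 80.8, 85.5 and 109.8 RPM in WT 1 to WT 4. As in Mthfd2, KO 3 was the highest and KO 4 the lowest KO library. Egln3, at 74.9, 75.2, 87.3 and 79.5 RPM in KO 1 to KO 4, against 21.3, 8.35, 13.4 and 18.3 RPM in WT 1 to WT 4, did not have the low value in KO 4. Among the enzymes themselves, Psat1 (1.14) and Mthfd1l (1.19) were nearest to Mthfd2, and Aldh1l2 (2.10) was farthest. The call of Stbd1 was lost without WT 2 (limma adjusted p = 0.0531) and without WT 3 (limma adjusted p = 0.0676).

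**Figure D5:**
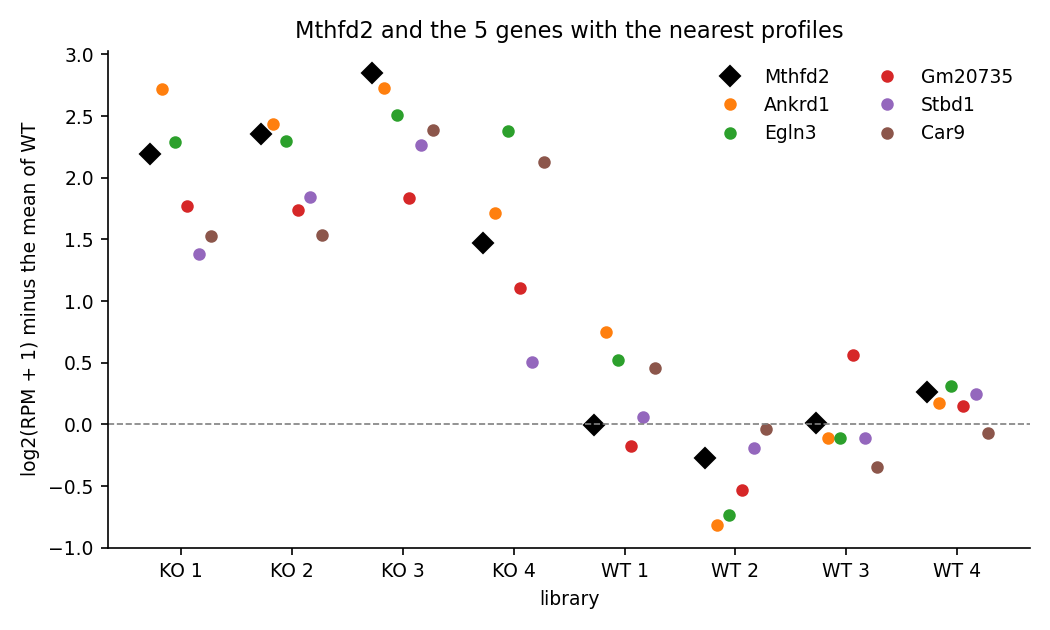
Log2(RPM + 1) minus the mean of the WT libraries (vertical axis) for Mthfd2 (black diamonds) and the 5 genes with the nearest profiles, in each KO and WT library. All 6 genes are above 0 in the 4 KO libraries, and Mthfd2, Ankrd1, Gm20735 and Stbd1 have their lowest KO value in KO 4.

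Whole muscle holds other cells, and in such samples a change in the share of a cell type and a change in RNA per cell cannot be told apart. Markers of dividing cells, in which Mthfd2 is known to be high, summed to 3.77 to 7.32 RPM in KO libraries and 1.97 to 3.17 RPM in WT libraries (6 of 8 genes in the table, 1 tested), and the groups did not overlap. The proliferation marker Mki67 was at 0 to 0.412 RPM in KO libraries and 0.141 to 0.167 RPM in WT, at or below 3 reads in each library. Tk1 was also at or below 3 reads in 8 of 8 libraries, Top2a and Cdk1 in 7 and Birc5 in 4. Most of these markers therefore lay near the floor. Rrm2, the 1 gene tested, stood at 2.45 RPM in KO libraries and 1.58 RPM in WT libraries on average (limma adjusted p = 0.345). Macrophage and myeloid markers (8 of 8 in the table, 7 tested) summed to 89 to 128 RPM in KO libraries and 59.5 to 114 RPM in WT, and Cd68 rose, at 9.95 ± 2.97 RPM in KO libraries and 3.92 ± 0.865 RPM in WT libraries (log2 difference 1.01, limma adjusted p = 0.0192). In that list 4 of the 7 tested lay above the median gene and 3 below. The 3 below were Adgre1, Csf1r and Mrc1, with log2 differences of -0.16, -0.06 and -0.28. C1qa was at most 0.137 RPM in KO libraries and 0.162 RPM in WT. Endothelial markers (8 of 8 tested, none called by limma or edgeR) summed to 486 to 680 RPM in KO libraries and 329 to 490 RPM in WT. At an unadjusted p under 0.05, 5 of the 8 were higher and 0 lower, where 13.1% and 3.07% of all genes tested were. The part of these cells in the Mthfd2 difference was not tested. Markers of fibroblasts, adipocytes, Schwann cells, satellite cells and smooth muscle overlapped between the groups in their sums and held no called gene in limma or edgeR. The smooth muscle sum was mostly Acta2, at 6530 of 7017 RPM in KO libraries and 8779 of 9191 RPM in WT on average. That sum therefore says little about the other genes of its list.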

How the data were processed

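Total RNA was profiled on an amplicon panel, Ion AmpliSeq Transcriptome Mouse. The authors deposited RPM (reads per 1000000 reads) in a single table, whose columns were matched to libraries by the bar codes in the labels, which do not say that each came from a separate animal. P-values therefore measure the spread between libraries. The Transcriptome Analysis Console is named in the submitters' processing notes. Aligner, build and use of strand: not given in the sources used here. All values (100%, tolerance 0.05 reads) were whole multiples of 1 read, so reads were recovered.

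Genes reaching 1 RPM in 4 or more libraries entered the test on log2(RPM + 1), which understates changes of low genes, with limma 3.58.1 in R 4.3.3 (variance trend, two-sided, Benjamini-Hochberg adjustment over all 11087 genes). Added as alternatives were edgeR 4.0.16, which called 92 genes, and DESeq2 1.42.0 on recovered reads, and other scalings, filters and left-out libraries. Genes, lists and alternatives were chosen with earlier results of these data known. Named were the 9 enzymes, Sdhc and the 5 profiles nearest to Mthfd2. In each neighbouring list the genes that passed and the 4 with the smallest p were named. Slc19a1, Slc25a32, Gldc, Ddit3, Sars, Slc7a5, Atf5, Aldh18a1, Asns, Pck2, Chac1 and Atf4 were added after their values were seen. Fits were tested on simulated data. Positions came from GENCODE M21 (GRCm38) by symbol. Same-numbered libraries shared only a number. Some genes of these lists are not reported here.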

Additional observations from a re-analysis of the deposited data

Results flagged for a closer look

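Among the values of single genes, 3 lay far from the other 3 libraries of their group by the gap to the nearest value relative to the range, a rule that chance meets in about 1 in 20 groups. In KO 4, Gm20735 stood at 3.16 RPM, where KO 1 to KO 3 lay between 5.45 and 5.89 RPM. In WT 4, Adsl stood at 299 RPM, where WT 1 to WT 3 lay between 246 and 251 RPM. In WT 1, Stc2 stood at 0.987 RPM, where WT 2 to WT 4 lay between 0.285 and 0.334 RPM, below the floor of 3 reads. None of the 9 enzymes had such a value.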

How the results depend on the processing

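Mthfd2 was called in all 23 alternatives (log2 difference 1.81 to 2.34, adjusted p at most 0.00612), and no other enzyme was called in any in which it was tested. Trib3 lost its call in 9 of 22. The number of genes called, 89, was 59 with no filter on low values, 181 with array weights, 240 in DESeq2, 235 with a term for the libraries with Xist, 392 without those libraries and 9 without KO 3 and WT 3 together. Leaving out 1 library gave 16 (without WT 3) to 263 (without KO 4), and the cause was not tested. The count was 104 with TMM factors, with 39 higher and 65 lower against 58 higher and 31 lower. The replicate number as a block gave 81 genes; same-numbered libraries did not deviate together (correlations -0.121 to 0.0791), KO 2 alone correlated best with its own number, and no enzyme changed its call.

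The arm difference of 0.79 was 0.24 without Mthfd2 and was 0.67 to 0.94 when 1 library was left out. The Sdhc level in KO, 3.73% of WT, was 2.6% to 4.28% with 1 library left out, where the smallest possible exact permutation p is 0.0571.

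Log2 differences near 0 changed sign. Shmt2 (-0.03) stood at 0.00036 with a pseudocount of 5, 0.045 with no filter, 0.025 with array weights, 0.12 without KO 3 and WT 3 together, and -0.10 to 0.074 with 1 library left out. Shmt1 ranged from -0.51 to 0.063 with 1 library left out, and Psph stood at 0.0093 without KO 3 and WT 3 together. Mtfmt stood at -0.012 after quantile normalization, -0.012 with array weights, -0.044 without KO 3 and WT 3 together and -0.1 to 0.12 with 1 library left out. Adsl stood at -0.0050 with TMM factors, -0.0068 and -0.0096 in edgeR with and without TMM, -0.0066 in DESeq2 and -0.031 to 0.059 with 1 library left out. Ahcyl1 stood at -0.016 with array weights, -0.12 without the libraries with Xist and -0.056 to 0.075 with 1 library left out. Mtrr ranged from -0.022 to 0.17 and Cth from -0.096 to 0.42 with 1 library left out. Depth limits Mthfd1l, Aldh1l2 and Psat1, with under 30 reads in every library, and Aldh1l1 and Shmt1, with under 30 reads in some.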
